A study of Mus musculus with 8 samples.

Results

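The 10 genes described here are targets and feedback inhibitors of FGF receptor signalling through the kinase ERK, measured in whole lungs of newborn mice. The genes were taken by their platform gene symbols. They are the ETS transcription factor genes Etv1, Etv4 and Etv5, the Sprouty genes Spry1, Spry2 and Spry4, the Spred genes Spred1 and Spred2, the phosphatase gene Dusp6 and the receptor-like gene Il17rd. They had 12 features on the array, and 10 of 17234 tested genes were members. Each gene was read from its feature with the highest mean over all arrays, and only Etv1 and Etv4 had another feature.

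The pups carried the genotype label Fgf10+/- or wild-type on a C57Bl/6J background. Both groups were kept in 85% oxygen in a chamber from postnatal day 0 to day 3, a treatment that disturbs alveolar development, and no array of pups in room air was used here. Total lung RNA was labelled with Cy3 and hybridised to 1 array per sample, with 4 arrays per group. Sample titles name the Fgf10+/- group TG, and the sources used here say neither what TG stands for nor which part of Fgf10 was altered. They do not tie the samples to separate litters, so the p-values measure the spread between these arrays.

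FGF10 is made by lung mesenchyme and acts on the neighbouring epithelium through the receptor FGFR2b, which switches on the RAS, RAF, MEK and ERK cascade. ERK activity raises transcription of the ETS factors ETV1, ETV4 and ETV5, which carry the response onward, and of inhibitors that dampen the same cascade. In the developing mouse lung Etv4, Etv5 and Spry2 are expressed in the distal epithelium under FGF signals, and ETV5 is known to maintain alveolar type 2 cells, the surfactant-making cells of the alveolus. Levels of these genes are therefore widely used as a readout of FGF to ERK signalling.

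The RefSeq promoter windows of Etv5 and Etv1 are shown because Etv5 was the member that changed and Etv1 is a closely related gene that was not called. Each runs 5′ to 3′ from 250 bases before to 50 bases after an annotated start on GRCm38.p6. The Etv5 windows are chr16:22439521-22439820 and chr16:22438319-22438618, both on the minus strand, and the Etv1 window shown is chr12:38779832-38780131 on the plus strand. Capitals mark AGGAAG, a spelling of the GGAA core that ETS factors bind.
Etv5 upstream start: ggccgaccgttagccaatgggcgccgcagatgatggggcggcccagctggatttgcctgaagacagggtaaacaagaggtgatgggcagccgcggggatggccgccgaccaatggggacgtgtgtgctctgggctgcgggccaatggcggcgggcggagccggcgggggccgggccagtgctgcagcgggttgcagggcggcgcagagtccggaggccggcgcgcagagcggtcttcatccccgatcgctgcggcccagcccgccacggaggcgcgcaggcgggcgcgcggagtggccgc
Etv5 downstream start: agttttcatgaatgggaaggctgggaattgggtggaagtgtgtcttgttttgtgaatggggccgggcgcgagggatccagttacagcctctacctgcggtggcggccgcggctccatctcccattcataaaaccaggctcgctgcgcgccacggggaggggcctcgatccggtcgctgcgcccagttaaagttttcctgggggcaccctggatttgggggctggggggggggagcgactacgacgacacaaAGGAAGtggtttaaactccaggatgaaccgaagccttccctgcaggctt
Etv1 upstream start: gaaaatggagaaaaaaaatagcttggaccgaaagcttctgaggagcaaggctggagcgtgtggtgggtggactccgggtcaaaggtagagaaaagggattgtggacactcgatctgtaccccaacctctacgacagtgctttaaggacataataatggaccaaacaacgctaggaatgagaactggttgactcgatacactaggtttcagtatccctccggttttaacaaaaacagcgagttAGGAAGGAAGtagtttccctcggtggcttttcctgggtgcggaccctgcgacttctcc
The upstream Etv5 window held no match, the downstream one held 1 next to the start, and the Etv1 window shown held a pair that overlap each other. The window of the downstream Etv1 start, chr12:38783461-38783760, is not shown and held none. RefSeq gave 10 windows for 8 of the members, and none was used for Etv4 or Spry4. Searched on both strands, AGGAAG occurred in 4 of the 10 windows, against 35.4% of all 32841 windows of this length. The spelling CCGGAAG, which does not contain AGGAAG, occurred in 0 of the 10 windows and in 8.86% of all windows. A match describes letters and not a bound site.

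Arrays of 1 group correlated with each other at 0.975 to 0.985 and arrays of different groups at 0.974 to 0.987 (Pearson r over tested genes). Lung identity was plain from surfactant protein C (Sftpc), which averaged 15.99 in both groups at the top of the log2 scale. Fgf10 read 7.81, 7.99, 8.10 and 8.28 in the arrays labelled Fgf10+/-, against 7.53, 8.16, 7.91 and 7.64 in wild-type arrays (log2 intensity, replicates 1 to 4). It was thus not lower in the arrays labelled Fgf10+/- (difference 0.23, two-sided exact permutation p = 0.2), and every direction below rests on the labels. In wild-type array 1 the mean level of 8 leukocyte markers was 9.996, outside the 9.22 to 9.46 of the arrays labelled Fgf10+/- and the 9.25 to 9.37 of wild-type arrays 2 to 4.

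Of the 10 members, Etv5 was called higher in the arrays labelled Fgf10+/- and 9 were not called. A call is a Benjamini-Hochberg adjusted p below 0.05 in limma over all tested genes. Among all genes 0.226% were called higher, 0.569% lower and 0.795% in either direction. None of the members was lower by this test, nor at an unadjusted p below 0.05, which Etv5 alone among the members met and 11.2% of all genes met. The median log2 fold change of the 10 members was 0.07, beside 0.01 over all tested genes. The fold change was above 0 in 8 of the 10 members and in 51.3% of all genes. The median absolute log2 fold change was 0.17 for the members and 0.16 for all tested genes, so as a list the members moved about as much as genes in general.

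**Figure D1:**
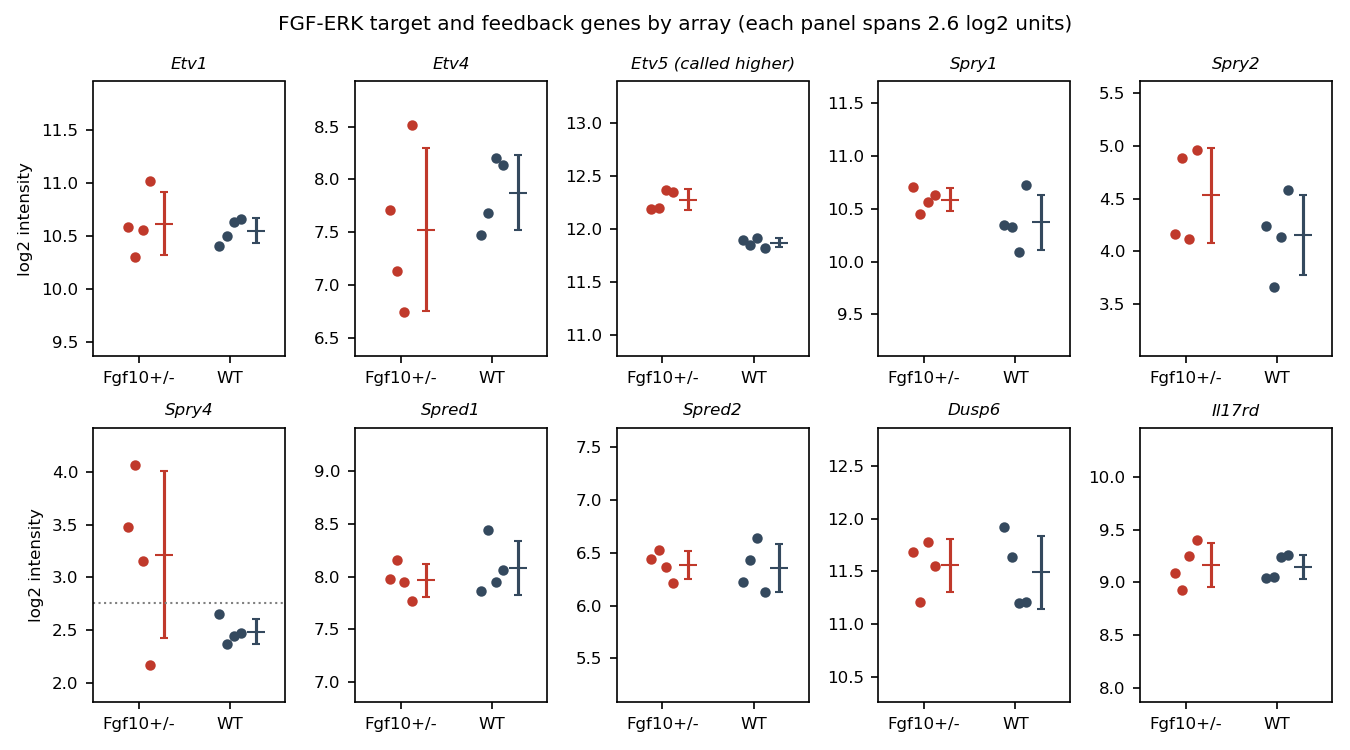
Log2 intensity (y axis) of each member in the 4 arrays labelled Fgf10+/- (red, left) and the 4 wild-type arrays (dark, right), points in replicate order, with mean and SD beside them; each panel spans the same height and the dotted line in the Spry4 panel is the filter level of 2.76. Only in the Etv5 panel do the groups lie apart.

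Among the ETS factors, Etv5 read 12.19, 12.20, 12.37 and 12.35 in the arrays labelled Fgf10+/-, against 11.90, 11.85, 11.92 and 11.82 in wild-type arrays (log2 intensity, replicates 1 to 4). All 4 arrays labelled Fgf10+/- were above all 4 wild-type arrays, as in 3.13% of all genes. Etv5 averaged 12.28 ± 0.10 in the group labelled Fgf10+/- and 11.87 ± 0.05 in the wild-type group (SD, n = 4 each). Etv5 rose by 0.41 on the log2 scale, which is 1.33-fold (SE 0.07, 95% CI 0.25 to 0.56, limma adjusted p = 0.0203). The estimate lay between 0.37 and 0.44 with any 1 array left out. The call was lost without array 3 (adjusted p = 0.0837) or array 4 (0.0694) labelled Fgf10+/-, without wild-type array 2 (0.0778) or wild-type array 4 (0.0506), and without the variance trend (0.207).

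Etv4 is commonly used beside Etv5 as a marker of FGF-responsive lung tips. It read 7.71, 7.13, 6.74 and 8.51 in the arrays labelled Fgf10+/-, against 7.47, 7.68, 8.20 and 8.14 in wild-type arrays. The groups overlapped, and the arrays labelled Fgf10+/- held both the lowest and the highest of the 8 values. The log2 fold change was -0.35 (SE 0.31, 95% CI -1.02 to 0.32, limma adjusted p = 0.738), and it was -0.68 without array 4 labelled Fgf10+/- and -0.09 without array 3 of that group. The other Etv4 feature averaged 4.41 in the group labelled Fgf10+/- and 4.96 in the wild-type group, a difference of -0.55.

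Etv1, the remaining factor of this subfamily, read 10.59, 10.30, 10.56 and 11.02 in the arrays labelled Fgf10+/-, against 10.41, 10.50, 10.63 and 10.66 in wild-type arrays. The wild-type values lay inside the range of the other group. The log2 fold change was 0.07 (SE 0.13, 95% CI -0.21 to 0.35), and the dimmer Etv1 feature differed by -0.39, the opposite sign.

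Whether the paralogs changed unequally was tested on differences within each array. Etv5 minus Etv1 was 1.66 ± 0.26 in the group labelled Fgf10+/-, against 1.32 ± 0.14 in wild-type arrays (log2, SD, n = 4 each, two-sided exact permutation p = 0.0857, adjusted p = 0.4 over 7 pairs). Etv5 minus Etv4 was 4.75 ± 0.77 in the group labelled Fgf10+/-, against 4.00 ± 0.36 in wild-type arrays (n = 4 each, exact permutation p = 0.114, adjusted p = 0.4). The change of Etv5 was therefore not shown to differ from that of Etv1 or Etv4. The smallest p that 4 against 4 arrays allow is 0.0286. For the other 5 pairs, 1 of ETS factors, 3 of Sprouty genes and 1 of Spred genes, adjusted p lay between 0.44 and 0.6.

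The Sprouty proteins are intracellular inhibitors of receptor tyrosine kinase signalling that ERK activity itself induces, and none of the 3 was called. Spry1 read 10.70, 10.45, 10.56 and 10.63 in the arrays labelled Fgf10+/-, against 10.34, 10.33, 10.09 and 10.73 in wild-type arrays. Each array labelled Fgf10+/- was above wild-type arrays 1 to 3, and wild-type array 4 was the highest of all 8. The log2 fold change was 0.22 (SE 0.12, 95% CI -0.04 to 0.48, limma adjusted p = 0.547), and it was 0.34 without wild-type array 4.

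Spry2, which marks distal epithelium in the branching mouse lung, read 4.16, 4.88, 4.11 and 4.96 in the arrays labelled Fgf10+/-, against 4.24, 3.66, 4.13 and 4.58 in wild-type arrays. The groups overlapped, with arrays 2 and 4 labelled Fgf10+/- the highest and wild-type array 2 the lowest. Its log2 fold change was 0.38 (SE 0.33, 95% CI -0.33 to 1.08).

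Spry4 read 3.48, 4.06, 3.15 and 2.17 in the arrays labelled Fgf10+/-, against 2.65, 2.37, 2.45 and 2.47 in wild-type arrays. Arrays 1 to 3 labelled Fgf10+/- were above every wild-type array and array 4 was below them all. All 4 wild-type values lay under the level of 2.76 set as the filter on dim features, so Spry4 was tested only because of the other group, and whether its wild-type values were above background is unknown. Its log2 fold change of 0.73 (SE 0.43, 95% CI -0.19 to 1.65, limma adjusted p = 0.566) had the widest interval of the 10, and the members' median was 0.06 without it.

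Spred1 and Spred2 encode membrane proteins that hold back RAS by recruiting neurofibromin. Spred1 read 7.98, 8.16, 7.95 and 7.77 in the arrays labelled Fgf10+/-, against 7.86, 8.45, 7.95 and 8.06 in wild-type arrays. Wild-type array 2 stood highest and the remaining values were intermingled, with a log2 fold change of -0.12 (SE 0.15, 95% CI -0.45 to 0.21). Spred2 read 6.44, 6.53, 6.36 and 6.22 in the arrays labelled Fgf10+/-, against 6.22, 6.43, 6.64 and 6.13 in wild-type arrays. The wild-type range enclosed all 4 values of the other group, and the log2 fold change was 0.03 (SE 0.19, 95% CI -0.38 to 0.44).

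Dusp6 encodes a cytoplasmic phosphatase that removes the activating phosphates from ERK and is a common ERK readout. It read 11.69, 11.21, 11.78 and 11.55 in the arrays labelled Fgf10+/-, against 11.92, 11.64, 11.20 and 11.21 in wild-type arrays. Wild-type array 1, which had the highest leukocyte markers, was the highest for Dusp6, and the part of those cells in it was not tested. The log2 fold change was 0.06 (SE 0.16, 95% CI -0.28 to 0.40), and 0.21 without wild-type array 1.

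Il17rd, also called Sef, encodes a membrane protein that inhibits FGF receptor signalling. It read 9.09, 8.93, 9.25 and 9.40 in the arrays labelled Fgf10+/-, against 9.04, 9.05, 9.24 and 9.26 in wild-type arrays. The group means differed by 0.02 (SE 0.12, 95% CI -0.24 to 0.28), the smallest difference among the members. The 95% intervals of Etv1 (brighter feature only), Spred1, Spred2, Dusp6 and Il17rd all lay within 0.45 of 0 on the log2 scale. That bound was read from these intervals and was not set beforehand. A rise as large as that of Etv5, 0.41, lay inside the Spred2 interval. For Etv4, Spry1, Spry2 and Spry4 changes of 0.45 lay inside the intervals in at least 1 direction.

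**Figure D2:**
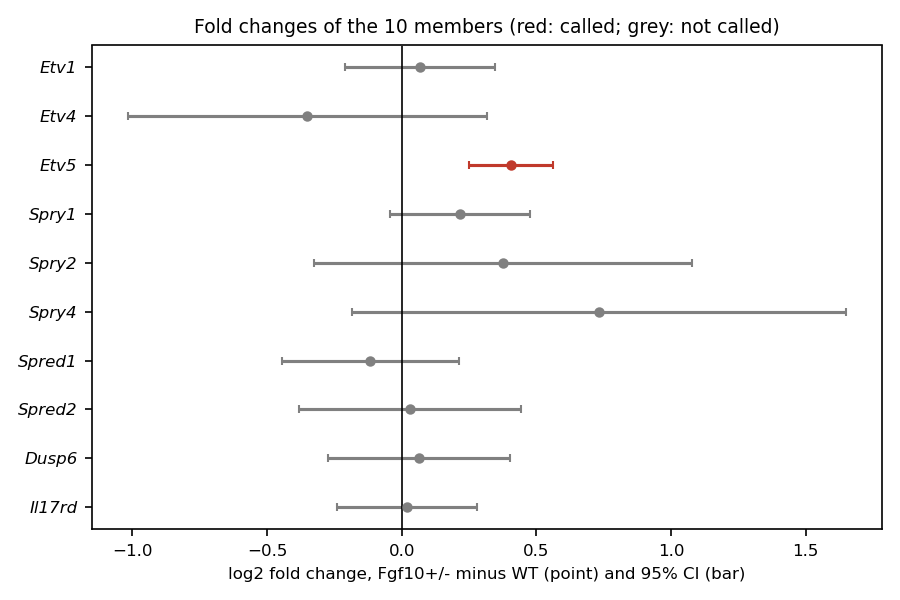
Log2 fold change of each member, arrays labelled Fgf10+/- minus wild-type (x axis, points), with 95% confidence intervals from limma (bars, n = 4 arrays per group). The interval of Etv5, 0.25 to 0.56, lies above 0 and the other 9 intervals include 0.

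As a whole the members did not rise and fall together from array to array. With group means removed, 18 of the 45 pairs of members had a Pearson r above 0 over the 8 arrays, with a median of -0.11. The highest r were 0.91 for Etv1 with Il17rd, 0.85 for Etv1 with Etv4, 0.63 for Etv5 with Il17rd and 0.61 for Etv4 with Il17rd, and the lowest was -0.93 for Etv1 with Spry4. All pairs share the same 8 arrays, and no such figures were computed for pairs of all tested genes, so these values are a description. All 4 wild-type values of Spry4 lay under the filter level of 2.76. Array 4 labelled Fgf10+/- was the highest of the 8 arrays for 4 members, Etv1, Etv4, Spry2 and Il17rd, and the lowest for Spry4 and Spred1. Array 3 labelled Fgf10+/- was the highest for Etv5 and the lowest for Etv4. Counted against the mean of their own group, between 3 and 6 of the 10 members lay above it in each array. The 5 tested genes whose deviations from the group means were most like those of Etv5 over the 8 arrays were Cd1d2, Polk, Psmb7, Skp1 and Siah3 (Pearson r 0.96 to 0.98). None of these 5 was called, and no member was among them. They were picked for the highest r among all tested genes, over only 8 arrays. How high the top r would be for unrelated genes was not tested. No link of these 5 genes to Etv5 is therefore read from their r, and nothing is read from the absence of members. Siah3 was also dim, with a wild-type mean of 3.22, near the filter level of 2.76.

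**Figure D3:**
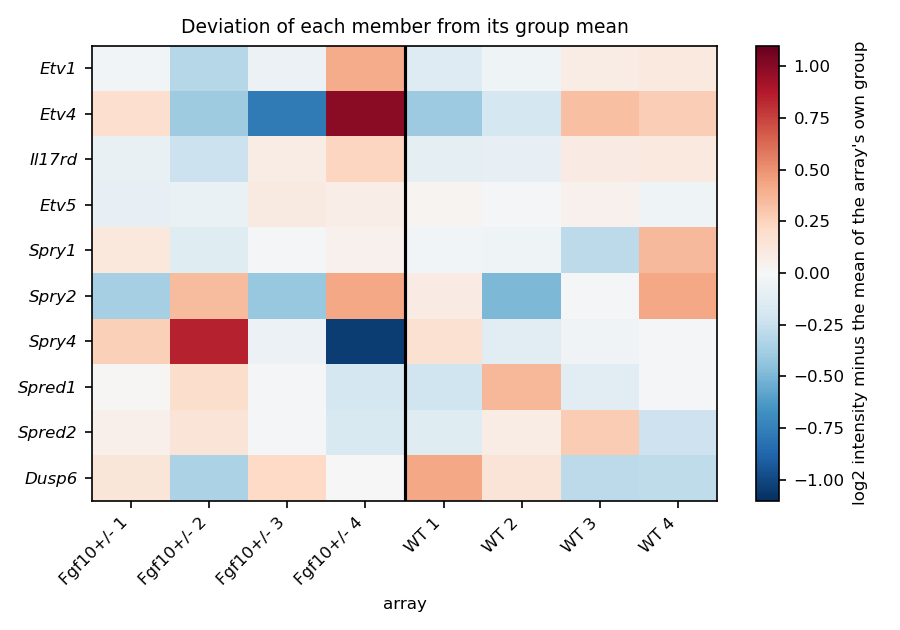
Log2 intensity of each member (rows) in each array (columns) minus the mean of that array's own group, red above and blue below, with arrays labelled Fgf10+/- left of the line and wild-type arrays right of it. Etv4 and Spry4 deviated most, at 0.99 and -1.05 in array 4 labelled Fgf10+/-, in opposite directions. Spry4 read 2.17 in that array, below the filter level of 2.76.

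Whether the members followed the level of their upstream ligand was asked across the 8 arrays. For the 9 members whose groups overlapped, Pearson r with Fgf10 lay between -0.09 and 0.41, and Spearman's rho between -0.43 and 0.29. The smallest unadjusted exact permutation p was 0.299, and no adjusted p was below 0.965 for Pearson r or 0.98 for Spearman's rho over the 10 members. Without array 4 labelled Fgf10+/- and wild-type array 1, which were farthest from the Fgf10 median, r lay between -0.60 and 0.49. With the mean of all 10 Fgf10 features in place of the brightest, r for the 9 members lay between -0.22 for Dusp6 and 0.54 for Il17rd, with 0.53 for Etv1, and the smallest adjusted p was 0.595. For Etv5, whose groups lay apart, r with the brightest feature was 0.39 once group means were removed.

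In the rest of the pathway, 66 of 72 listed genes were tested, and 1 was called higher, 2 lower and 63 neither way. Among all genes 0.226% were called higher and 0.569% lower. Of 7 FGF ligand genes, Fgf9, an epithelial and mesothelial ligand, was called lower. It read 5.68, 5.75, 5.91 and 5.72 in the arrays labelled Fgf10+/-, against 6.52, 7.37, 6.71 and 7.64 in wild-type arrays. The group labelled Fgf10+/- lay below every wild-type array, as in 3.51% of all genes, and Fgf9 fell by 1.29 (SE 0.25, limma adjusted p = 0.027). The call was lost without any 1 of the 4 arrays labelled Fgf10+/-, without wild-type array 2 or wild-type array 4, and without the variance trend (adjusted p 0.0631 to 0.173). Fgf18 had a log2 fold change of -0.21 (SE 0.11).

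None of the 5 FGF receptor genes was called by limma. An unadjusted p below 0.05, met by 11.2% of all genes, was met by 1 of the 5, Fgfr1 at -0.34 (SE 0.13). Fgfr2, whose IIIb form binds FGF10, had 0.23 (SE 0.14) and Fgfr4 -0.05 (SE 0.15). Among 20 adaptors and kinases of the cascade none was called. Beside the same 11.2% of all genes, 1 of the 20 had an unadjusted p below 0.05. That was Ptpn11, which encodes the phosphatase SHP2 that relays FGF receptor signals, at -0.19 (SE 0.09). The kinase gene Rps6ka3 had 0.54 (SE 0.29) and the FGF receptor docking gene Frs2 0.18 (SE 0.12).

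Feedback genes outside the member list gave no call among 7 tested. An unadjusted p below 0.05 was met by 2 of the 7, beside 11.2% of all genes. The fold change was above 0 in 6 of the 7, beside 51.3% of all genes. Errfi1, which encodes an inhibitor of the EGF receptor, read 11.93, 11.58, 12.17 and 11.90 in the arrays labelled Fgf10+/-, against 11.63, 11.45, 11.35 and 11.24 in wild-type arrays. Only array 2 labelled Fgf10+/- lay inside the wild-type range, and the log2 fold change was 0.48 (SE 0.12, limma adjusted p = 0.0928). Lrig1, a gene for a membrane inhibitor of receptor tyrosine kinases, had 0.43 (SE 0.16, limma adjusted p = 0.301). Its arrays labelled Fgf10+/- lay above every wild-type array, as in 3.13% of all genes. Spred3 had 0.69 (SE 0.42), with a wild-type mean of 2.42 that lay below the filter level.

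Of 11 other ERK transcription targets, Ccnd1 was called lower. It encodes cyclin D1, which drives cells from G1 into S phase. Ccnd1 read 11.85, 11.69, 11.73 and 11.71 in the arrays labelled Fgf10+/-, against 12.23, 12.17, 12.20 and 12.06 in wild-type arrays. It thus moved the other way from Etv5, with groups apart, and fell by 0.42 (SE 0.07, limma adjusted p = 0.0175). The Ccnd1 call was lost without array 2, 3 or 4 labelled Fgf10+/-, without wild-type array 2, and without the variance trend (adjusted p 0.0563 to 0.197). The immediate early gene Egr1 read 9.22, 8.82, 9.80 and 9.13 in the arrays labelled Fgf10+/-, against 8.92, 8.87, 7.71 and 7.67 in wild-type arrays. Wild-type arrays 3 and 4 were more than 1 log2 unit below the other 6 arrays, and the log2 fold change of 0.95 (SE 0.29, limma adjusted p = 0.181) did not pass. Fosl1, an AP-1 subunit gene, had -0.71 (SE 0.34) with a mean of 2.62 in the arrays labelled Fgf10+/-, below the filter level.

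Of 16 other ETS factor genes, Elf5 was called higher and 15 were not called. ELF5 is a transcription factor of distal lung and mammary epithelium. Elf5 read 10.66, 10.56, 10.77 and 10.45 in the arrays labelled Fgf10+/-, against 10.12, 9.87, 9.99 and 9.77 in wild-type arrays. The groups lay apart, and Elf5 rose by 0.67 (SE 0.10, limma adjusted p = 0.01). Its call held whichever of the 8 arrays was left out and was lost without the variance trend (adjusted p = 0.173). Etv3 had -0.32 (SE 0.14) and Elf1 0.32 (SE 0.15), neither of them called.

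Of 12 markers of alveolar type 2 cells 5 were called higher and 7 were not called, beside 0.226% of all genes called higher. In 7 of the 12 every array labelled Fgf10+/- lay above every wild-type array, as in 3.13% of all genes. The called genes were the phosphate transporter gene Slc34a2 at 0.72 (SE 0.11), the surfactant lipid transporter gene Abca3 at 0.48 (SE 0.08), the lamellar body gene Lamp3 at 0.51 (SE 0.09), Lpcat1 at 0.58 (SE 0.12) and Cxcl15 at 0.42 (SE 0.09). The fold change was above 0 in 11 of the 12, beside 51.3% of all genes. Among those not called, Muc1 had a log2 fold change of 0.43 (SE 0.14) and Napsa 0.29 (SE 0.11), each with groups apart. The surfactant gene Sftpc, also not called, had 0.00 (SE 0.06). It averaged 15.99 in both groups, at the top of the log2 scale, where a rise could not be read. The lysozyme gene Lyz2, which macrophages also express, had -0.25 (SE 0.18). The count of called markers was 1 to 4 with 1 array left out and 0 without the variance trend. The mean level of the 12 markers was 12.89, 12.85, 12.88 and 12.75 in the arrays labelled Fgf10+/-, against 12.60, 12.54, 12.44 and 12.60 in wild-type arrays. These means lay apart between the groups, as Etv5 did. Whether they followed Etv5 from array to array within a group was not tested. The part of these cells in the Etv5 and Elf5 values was not tested. In whole lung, fewer or more cells of a type and less or more RNA per cell cannot be told apart.

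The other marker lists overlapped between the groups in their mean level. It was 11.66 to 11.86 in the arrays labelled Fgf10+/-, against 11.71 to 11.85 in wild-type arrays for 8 type 1 cell markers. For 6 airway markers it was 12.48 to 12.78 in the arrays labelled Fgf10+/-, against 12.21 to 12.59 in wild-type arrays. For 8 mesenchymal markers it was 11.22 to 11.55 in the arrays labelled Fgf10+/-, against 11.34 to 11.62 in wild-type arrays. For 6 endothelial markers it was 9.79 to 9.99 in the arrays labelled Fgf10+/-, against 9.82 to 10.10 in wild-type arrays. limma called no gene of these 4 lists or of the leukocyte list. An unadjusted p below 0.05 was met by 2 of 8 type 1, 2 of 6 airway, 2 of 8 mesenchymal, 0 of 6 endothelial and 2 of 8 leukocyte markers. Among all genes 11.2% met it. The values nearest to a call in each list were -0.41 for Cav1, 0.43 for Ccdc153, -0.30 for Acta2, -0.29 for Pecam1 and -0.25 for Csf1r. For Cav1 and Csf1r every array labelled Fgf10+/- lay below every wild-type array, as in 3.51% of all genes. The groups overlapped for Ccdc153, Acta2 and Pecam1.

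**Figure D4:**
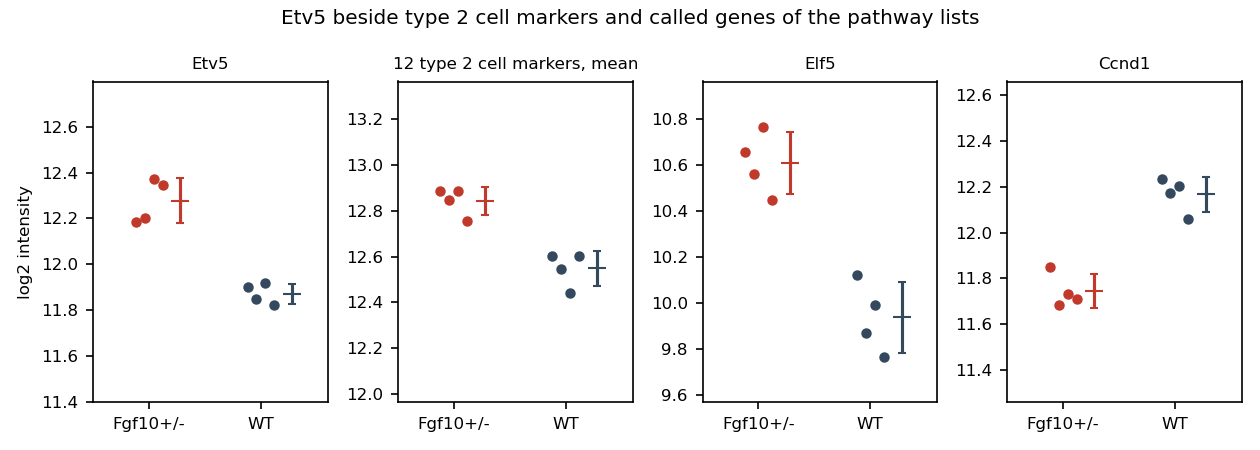
Log2 intensity (y axis) in the 4 arrays labelled Fgf10+/- (red, left) and the 4 wild-type arrays (dark, right) for Etv5, the mean of 12 type 2 cell markers, Elf5 and Ccnd1, with mean and SD beside the points; panels span the same height. Etv5, the marker mean and Elf5 are higher and Ccnd1 is lower in every array labelled Fgf10+/- than in any wild-type array.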

How the data were processed

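Total RNA of 8 lungs was amplified with a low-input kit and hybridised with 1 dye, per the labels' protocols. The authors deposited log2 intensities of 62976 features per array. The submitters' processing notes name limma, without version or step. The 8 columns share nearly the same quantiles, so they were used as deposited. How background was corrected and where detection ended are not given in the sources used here. Features with a missing value (189) were left out. The platform annotation named 31465 features, and 29050 were matched by accession to RefSeq (GRCm38.p6) for current symbols.

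Named features with a mean at or above the 30th percentile of all complete features (2.76) were kept, and the feature with the highest mean stood for each gene, giving 17234 genes. All 10 members passed. The test was limma 3.58.1 in R 4.3.3 (eBayes with a variance trend), arrays labelled Fgf10+/- minus wild-type, two-sided, with Benjamini-Hochberg adjustment over all genes. SE and 95% CI come from this fit. Single values and within-array differences were compared by exact permutation over 70 assignments. The fit was also run on simulated independent normal values without array effects, so that run says nothing about such effects in these arrays. Besides the members, the text names every called gene of the other pathway lists, up to 3 genes with the smallest unadjusted p per list, and the 5 genes most like Etv5. Every called type 2 marker, Muc1, Napsa, Sftpc and Lyz2 are named too, beyond that rule and after its values were seen. For other cell types 1 gene per list is named. The members and lists were chosen with earlier results of these data known. Alternatives were the variance trend, the filter, the normalization, the feature per gene, array weights, the replicate number as a block and leaving out each array. The number of arrays limits the precision.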

Additional observations from a re-analysis of the deposited data

How the results depend on the processing

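The estimate for Etv5 stayed between 0.37 and 0.44 under all 17 alternatives, and 12 of them kept its call. Without the variance trend 1 gene was called in all and 0 members were. With 1 array left out, 34 to 177 genes and 0 to 1 members were called higher or lower, against 137 genes and 1 member with all arrays. The fewest genes were called without wild-type array 2, and 69, 83, 63, 59 and 62 without arrays 1, 2, 3 and 4 labelled Fgf10+/- and wild-type array 4. The members' median ranged from 0.061 to 0.17 with 1 array left out, highest without array 2 labelled Fgf10+/-, where Spry4 fell below the filter. No alternative called a member lower. Members that were not called changed sign in places. Etv1 was -0.16 by the mean of its features and -0.39 by the feature with the largest interquartile range, and Spred2 was -0.026 with array weights. With 1 array left out Etv1 ranged from -0.068 to 0.17, Spred1 from -0.19 to 0.0056, Spred2 from -0.045 to 0.12, Dusp6 from -0.033 to 0.21 and Il17rd from -0.058 to 0.100, and the change of Spry1 minus Spry2 from -0.32 to 0.0036. With the mean of all Fgf10 features, the relation of Spry1 to Fgf10 changed sign (r = 0.30), and those of the other 9 members kept theirs and did not pass. The replicate numbers are shared by the groups, but same-numbered arrays did not deviate together (r -0.064 to 0.067 over all genes, and 1 of the 4 arrays labelled Fgf10+/- correlated best with its own number). With the replicate number as a block 116 genes and 1 member, Etv5 (limma adjusted p = 0.0457), were called, and 3 type 2 markers in place of 5. The causes of these shifts were not tested. The alternative without Spry4 and those for Fgf9, Ccnd1, Elf5 and the type 2 markers were chosen after seeing the data. Dim features such as Spry4 are limited by an unknown background level.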
